A study of Mus musculus with 23 samples.

Results

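The comparison described here asks how far the difference in muscle gene expression between evening and morning changed with genotype. For each gene it takes the log2 difference ZT12 minus ZT0 in RE-RE mice and subtracts the same difference in wild-type (WT) mice, each taken as the mean of uninjected and 6-OHDA-injected muscle. Zeitgeber time (ZT) counts hours from the start of the light phase, which ends at ZT12. This quantity is called the genotype change below. A positive value means that the gene was relatively higher at ZT12 in RE-RE than in WT mice, and a negative value that it was relatively lower. All 23 of the 23 libraries entered the fit, and 11171 protein-coding genes of the 14500 genes in the table, those reaching 1 FPKM in 2 or more libraries, were tested. Values are on the log2(FPKM + 0.01) scale, which understates folds of genes near 0. FPKM counts fragments scaled to the exon length of the gene and to a library size, which in these values differed from the recovered read total.

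The tissue was whole tibialis anterior, a shin muscle of mostly fast fibres, from female C57BL/6 mice fed ad libitum. RE-RE mice have the genotype Bmal1(stopFL/stopFL) with both Syt10-Cre(-/tg) and Hsa-Cre(-/tg). In this allele a stop cassette blocks Bmal1 (gene symbol Arntl) until Cre removes it, Hsa-Cre acts in skeletal muscle fibres, and Syt10-Cre acts in neurons, among them those of the central clock in the suprachiasmatic nucleus. Cells of the muscle that express neither Cre, such as vessel, immune and connective tissue cells, keep the blocked allele. The controls are labelled wild-type. 6-OHDA, which enters and destroys the endings of sympathetic nerves, was injected repeatedly at 50 mg/kg into the muscle, and sham muscle was not injected, so the sham groups do not control for the injections. WT sham muscle had 4 libraries at ZT0 and 3 at ZT12, from mice 12 to 18 weeks old, and WT 6-OHDA muscle had 4 at each time, from mice 12 to 16 weeks old. RE-RE muscle had 2 libraries in each of its 4 groups, from mice 10 to 11 weeks old in the sham groups and 12 to 18 weeks old in the 6-OHDA groups. In 6-OHDA muscle WT mice were 15 to 16 weeks old at ZT0 and 12 to 15 at ZT12. RE-RE mice of that treatment were 12 and 16 weeks old at ZT0 and 15 and 18 at ZT12. Age thus ran with time in opposite directions in the genotypes there. The labels do not say whether libraries came from separate animals, so p-values measure the spread between these libraries.

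In the molecular clock, Arntl pairs with Clock or Npas2 to switch on genes that carry E-box motifs, among them the period and cryptochrome genes, whose products then repress the pair. The pair also drives the REV-ERB nuclear receptors, which repress Arntl and Npas2, and the factor Dbp, which acts on D-box motifs. In muscle this loop sets daily rhythms in genes of fuel use, and meals and nerve input also act on them.

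RE-RE libraries varied more among themselves than WT libraries. The median residual SD of a gene was 0.399 log2 units in RE-RE and 0.201 in WT muscle, and it was larger in RE-RE for 93.7% of genes. The fit therefore gave each genotype its own error, with a variance ratio of 4.001. The 95% interval of a genotype change reached 0.628 log2 units to either side for the median gene. The library labelled RE-RE 6-OHDA ZT0 replicate 2 stood apart from the 11 other 6-OHDA libraries. Its summed FPKM was 22.7 over 10 genes of regenerating muscle and 19.99 over 11 macrophage genes, against at least 49.3 and 96.5 in the others, and inside or below the ranges of sham muscle (13.9 to 44.5 and 28.5 to 106). RE-RE sham replicates 1 and 3 had the lowest median rank correlations with other libraries among sham muscle, 0.908 and 0.914. Fast muscle fibre markers such as Acta1 and Ckm were high in every library.

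No gene passed the test of the genotype change (limma adjusted p under 0.05, 0% of 11171). At an unadjusted p under 0.05 there were 424 genes (3.8%), 279 with a negative change (2.5% of all tested) and 145 with a positive change (1.3%). With no change in any gene a share of 0.05 would be expected at that level, so the count of 424 is not above it. This count was 169 without the library labelled RE-RE 6-OHDA ZT0 replicate 2, 171 and 228 without RE-RE 6-OHDA ZT12 replicates 4 and 3, and 793 and 1059 without RE-RE sham replicates 1 and 3. With limma-voom on reads recovered from the FPKM values 1 gene passed, Npas2. With age as a covariate in the limma fit 0 genes passed, and 501 were at an unadjusted p under 0.05. The effects that the genotype change subtracts differed in how many genes passed. In WT mice 869 genes (7.78%) differed between the times, 421 rising (3.77%) and 448 falling (4.01%) from ZT0 to ZT12. In RE-RE mice 1 gene passed (0.00895%), Arntl, which fell. These counts rest on 15 WT and 8 RE-RE libraries and on a smaller error in WT, and do not show that the genotypes differ at any gene. Npas2, a partner of Arntl, and Slc25a34, a mitochondrial carrier, came closest to passing, each at a limma adjusted p of 0.0681. Their genotype changes were 3.18 and -2.80. Without RE-RE sham replicates 1 and 3 and the library labelled RE-RE 6-OHDA ZT0 replicate 2, they were 3.40 and -2.68. These libraries were picked by their own expression values, and each of their groups then held 1 library. That fit therefore cannot show whether either gene passes.

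**Figure D1:**
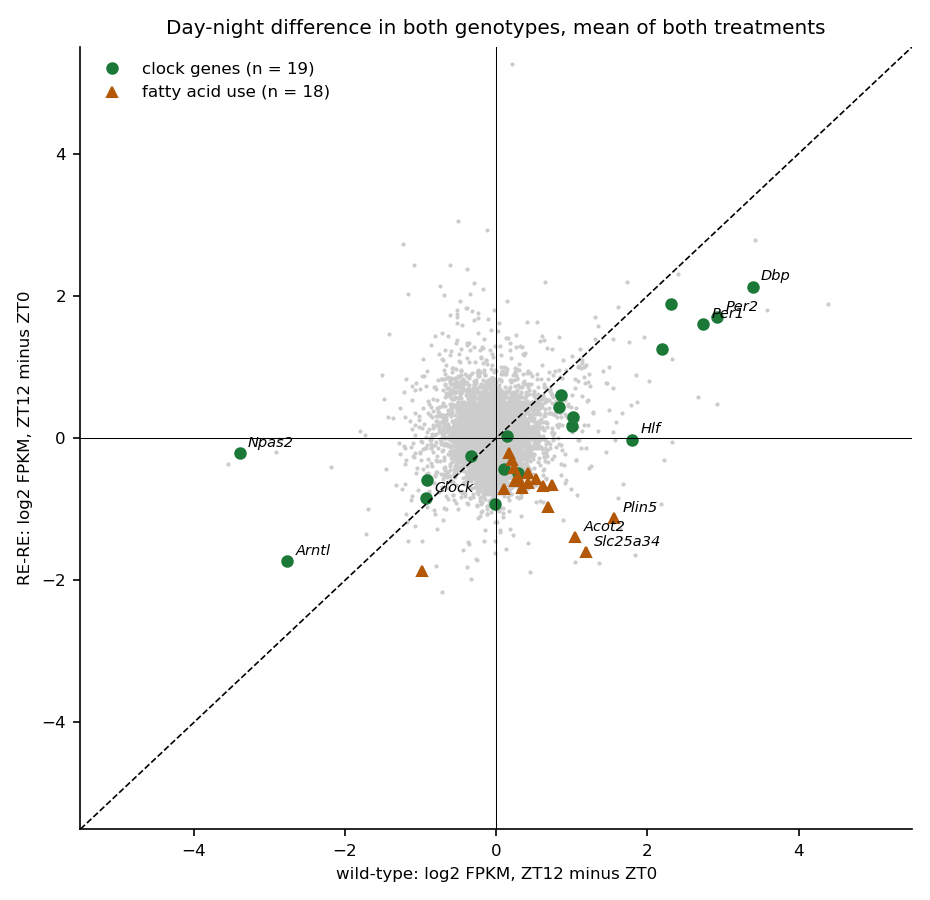
Each point is 1 of the 11171 genes tested, placed by its ZT12 minus ZT0 log2 FPKM difference in WT (x axis) and in RE-RE muscle (y axis). The clock genes lie along the line of equal differences or between it and 0, Npas2 lies far below 0 in WT and near 0 in RE-RE muscle, and 17 of 18 fatty acid genes lie right of 0 in WT and below 0 in RE-RE muscle.

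The clock genes were considered in 4 lists of 19 genes, of which all 19 were tested. In WT muscle 10 rose and 5 fell, against 3.77% and 4.01% of all genes. The WT libraries of the times did not overlap for 10 genes higher at ZT12 and 3 lower, where 0.815% and 0.465% of all genes were so, and the RE-RE libraries for 3 higher and 1 lower, where 0.519% and 0.841% were so. In RE-RE muscle Arntl fell and the other 18 did not pass. The estimated day-night difference was smaller in size in RE-RE than in WT muscle for 16 of the 19, and for 4074 of all 11171 genes. At an unadjusted p under 0.05 the genotype change was positive for 2 and negative for 5 of them, against 1.3% and 2.5% of all genes.

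Arntl (ENSMUSG00000055116, GRCm38 chromosome 7, 113207465 to 113314126) is the gene that the RE-RE allele controls. In WT muscle its lowest, median and highest FPKM were 9.12, 11.2 and 15.7 at ZT0 and 1.23, 1.73 and 2.22 at ZT12. In RE-RE muscle it was 11.0 and 14.3 in sham and 9.61 and 8.87 in 6-OHDA libraries at ZT0, and 2.83 and 4.07 in sham and 2.37 and 3.97 in 6-OHDA libraries at ZT12. The ranges of the genotypes overlapped at ZT0, and at ZT12 every RE-RE library lay above every WT library. Arntl fell 6.81-fold in WT muscle (log2 -2.77 ± 0.09 SE, limma adjusted p = 2.56e-15) and 3.33-fold in RE-RE muscle (-1.74 ± 0.24 SE, adjusted p = 0.00435). Its genotype change was 1.03 ± 0.26 (SE, 95% interval 0.50 to 1.57), which did not pass over all genes (limma unadjusted p = 6.14e-04, adjusted p = 0.857). No gene, Arntl included, passed in RE-RE muscle without RE-RE 6-OHDA ZT0 replicate 1 or without RE-RE 6-OHDA ZT12 replicate 3.

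Npas2 (ENSMUSG00000026077, chromosome 1, 39193731 to 39363236) encodes a paralog of Clock that can take its place beside Arntl. In WT muscle the lowest, median and highest FPKM of Npas2 were 0.757, 1.15 and 1.68 at ZT0 and 0.0656, 0.104 and 0.139 at ZT12, so the times did not overlap. In RE-RE muscle Npas2 was 1.93 and 1.5 in sham and 2.43 and 1.19 in 6-OHDA libraries at ZT0, and 0.576 and 1.97 in sham and 1.61 and 2.49 in 6-OHDA libraries at ZT12. The RE-RE times overlapped, and all 4 RE-RE libraries at ZT12 exceeded all 7 WT libraries at that time. Npas2 fell 10.5-fold in WT muscle (log2 -3.40 ± 0.19 SE, limma adjusted p = 9.64e-11), while its RE-RE difference was -0.22 ± 0.53 (95% interval -1.31 to 0.88). The genotype change was 3.18 ± 0.56 (95% interval 2.01 to 4.35, unadjusted p = 1.22e-05). It was 2.74 in sham and 3.62 in 6-OHDA muscle, and 2.88 without the library labelled RE-RE 6-OHDA ZT0 replicate 2. Its low level makes the size depend on the constant added before the logarithm, 0.01 FPKM in the deposited values, and with 1 FPKM the change was 0.86.

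Clock (ENSMUSG00000029238), the usual partner of Arntl, fell in WT muscle (log2 -0.93 ± 0.09 SE). The RE-RE difference of Clock was -0.85 ± 0.26 and did not pass. Its FPKM in RE-RE muscle was 7.74 and 4.75 in sham and 3.53 and 3.40 in 6-OHDA libraries at ZT0, and 3.94 and 2.40 in sham and 2.20 and 2.01 in 6-OHDA libraries at ZT12. Within each treatment every ZT12 library was below every ZT0 library. The genotype change of Clock was 0.09, with a 95% interval from -0.49 to 0.66, and it ran from -0.03 to 0.25 when each library was left out.

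**Figure D2:**
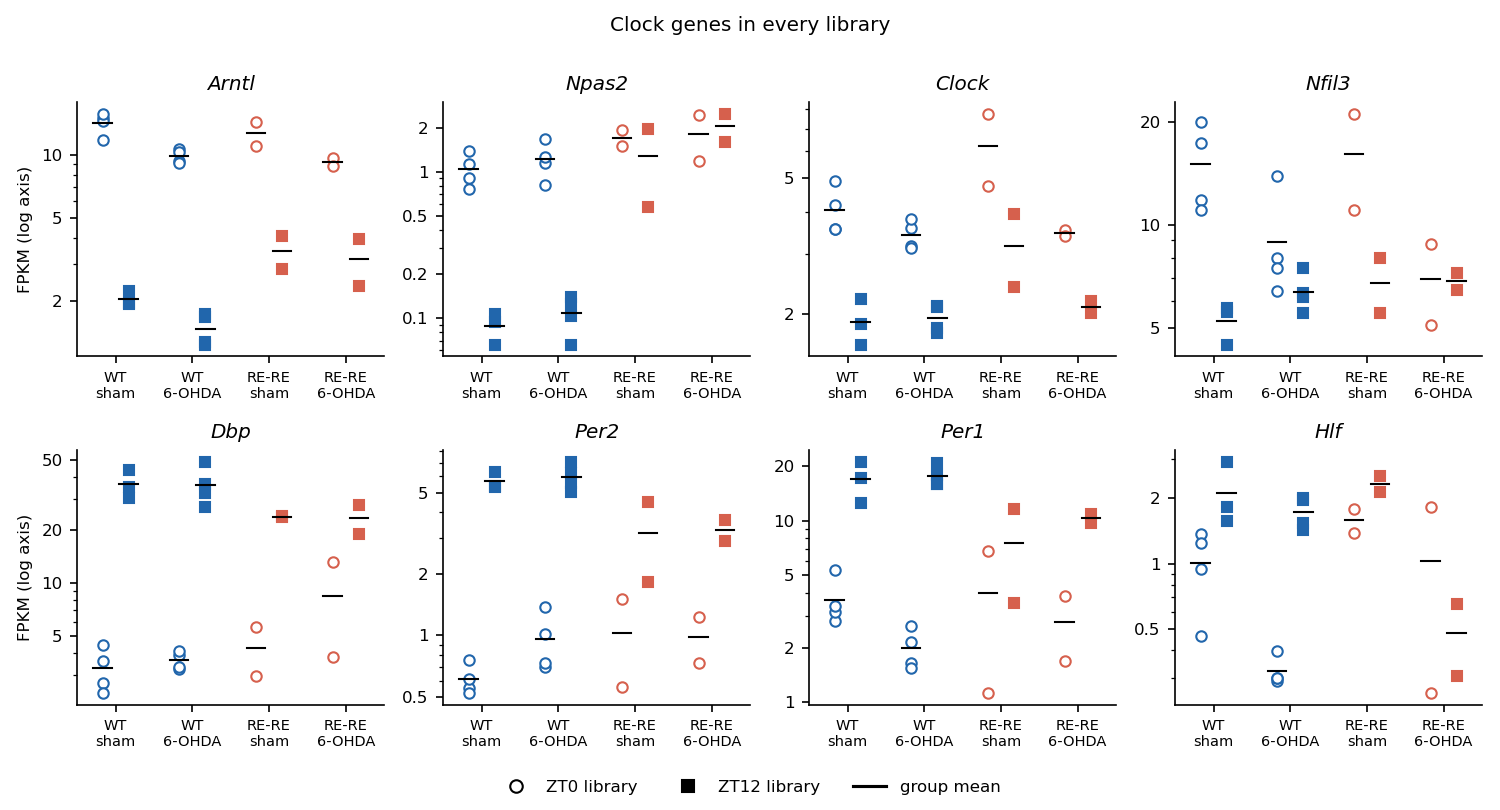
FPKM (log axis) of 8 clock genes in each of the 23 libraries, by genotype and treatment, with WT in blue and RE-RE in red, open circles for ZT0 and filled squares for ZT12, and a line at each group mean. For Npas2 the WT libraries at ZT12 lie at 0.0656 to 0.139 and the RE-RE libraries at 0.576 to 2.49.

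The period and cryptochrome genes and Ciart encode repressors of the Arntl pair. Per2 (ENSMUSG00000055866, chromosome 1, 91415982 to 91459324) had a lowest, median and highest FPKM of 0.522, 0.715 and 1.38 at ZT0 and 5.02, 5.57 and 7.07 at ZT12 in WT muscle. In RE-RE muscle Per2 was 0.559 and 1.5 in sham and 0.736 and 1.23 in 6-OHDA libraries at ZT0, and 1.83 and 4.51 in sham and 3.66 and 2.91 in 6-OHDA libraries at ZT12. The ZT0 ranges of the genotypes overlapped, whereas every RE-RE library at ZT12 was below every WT library. Per2 rose 7.57-fold in WT muscle (limma adjusted p = 3.24e-11), its RE-RE difference was 3.26-fold (log2 1.70 ± 0.42 SE, adjusted p = 0.618), and the genotype change was -1.22 ± 0.45 (95% interval -2.16 to -0.28).

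Per1 (ENSMUSG00000020893) stood at 1.54, 2.72 and 5.36 FPKM at ZT0 and 12.6, 17.2 and 21.1 at ZT12 in WT muscle, as lowest, median and highest. In RE-RE muscle the ZT12 libraries of Per1 were 3.53 and 11.6 in sham and 11.0 and 9.69 in 6-OHDA muscle, all below the lowest WT library. Its genotype change was -1.13 ± 0.63 and its interval (-2.43 to 0.17) included 0. The RE-RE sham libraries at ZT0, with 1.13 and 6.83 FPKM, were far apart, and the change of Per1 was -1.56 without replicate 1, -0.53 without replicate 2 and -0.70 without RE-RE sham ZT12 replicate 3. The change was -0.93 ± 0.48 for Per3 (ENSMUSG00000028957), another period gene, -0.40 ± 0.31 for Cry2 (ENSMUSG00000068742) and 0.08 ± 0.18 for Cry1 (ENSMUSG00000020038). Per1, Per3, Cry2 and Ciart rose in WT muscle and Cry1 fell. Without the library labelled RE-RE 6-OHDA ZT0 replicate 2 the change of Per3 was -0.50 (unadjusted p = 0.284) and that of Cry2 -0.25, and without RE-RE sham ZT0 replicate 1 that of Cry2 was -0.65. When each library was left out the change of Cry1 ran from 0.03 to 0.19.

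Ciart (ENSMUSG00000038550) binds the Arntl pair and represses it. In WT muscle Ciart was 0.501, 0.791 and 1.33 FPKM at ZT0 and 2.59, 3.83 and 5.20 at ZT12, and in RE-RE muscle 0.431 and 0.528 in sham and 0.611 and 0.922 in 6-OHDA libraries at ZT0 and 2.37 and 2.66 in sham and 2.90 and 1.35 in 6-OHDA libraries at ZT12. The times did not overlap in either genotype. Ciart was 4.96-fold higher at ZT12 in WT and 3.68-fold in RE-RE muscle, the latter not past the test (limma adjusted p = 0.628). As estimated, the genotype change was -0.43 ± 0.51, and it was 0.48 in sham and -1.29 in 6-OHDA muscle. The change of Ciart was -0.22 without the library labelled RE-RE 6-OHDA ZT0 replicate 2 and -0.11 without RE-RE 6-OHDA ZT12 replicate 4.

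The 250 bases before the transcription start are shown for 3 clock genes, because the E-box is the motif through which the Arntl pair acts and the RORE core the motif of the REV-ERB and ROR receptors. The sequences are from RefSeq, build GRCm38.p6, written 5′ to 3′ on the strand of the gene and ending next to the start site, with the motif in capitals. Ciart, at chr3:95882229-95882478 on the minus strand, holds 3 copies of the E-box CACGTG. Per1, at chr11:69098699-69098948 on the plus strand, holds 1. Nfil3, at chr13:52981040-52981289 on the minus strand, holds the RORE core TAGGTCA on the opposite strand, where it reads TGACCTA.
Ciart: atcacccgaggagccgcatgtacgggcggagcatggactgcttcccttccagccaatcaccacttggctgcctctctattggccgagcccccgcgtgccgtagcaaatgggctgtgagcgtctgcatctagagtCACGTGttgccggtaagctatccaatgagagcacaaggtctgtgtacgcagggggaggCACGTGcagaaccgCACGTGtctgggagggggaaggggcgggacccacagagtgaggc
Per1: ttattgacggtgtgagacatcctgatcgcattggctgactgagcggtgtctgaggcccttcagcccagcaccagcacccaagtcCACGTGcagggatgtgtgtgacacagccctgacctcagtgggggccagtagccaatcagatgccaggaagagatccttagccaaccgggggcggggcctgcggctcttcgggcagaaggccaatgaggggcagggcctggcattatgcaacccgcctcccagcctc
Nfil3: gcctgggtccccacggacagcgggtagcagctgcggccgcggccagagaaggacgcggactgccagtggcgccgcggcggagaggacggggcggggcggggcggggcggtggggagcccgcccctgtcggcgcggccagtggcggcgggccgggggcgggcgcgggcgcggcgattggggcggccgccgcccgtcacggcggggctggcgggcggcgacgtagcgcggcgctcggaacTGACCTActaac
Both strands were searched in the same window of all 32851 promoters in the RefSeq table. CACGTG was in 6.02% of all windows and in 6 of 21 windows of the clock genes (5 of 16 genes with an entry, Ciart, Per1, Cry1, Tef and Bhlhe41). The D-box TTANGTAA was in 2.06% of all windows and among the clock genes in Per3. TAGGTCA was in 2.23% of all windows, and among the clock genes in Nfil3. Of 18 windows of the fatty acid genes described below, none held CACGTG or TTANGTAA and 1, of Acadvl, held TAGGTCA, and the DR1 motif, read by receptors such as Ppard, was in 0.0335% of all windows and in none of either list. A match is a description of these letters and no evidence of binding. The genes with an E-box match ranged from Cry1, with a genotype change of 0.08, to Per1, with -1.13.

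Dbp, Tef and Hlf activate genes through D-boxes, and Nfil3 represses through the same motif. Dbp (ENSMUSG00000059824, chromosome 7, 45705088 to 45710203) was 2.36, 3.47 and 4.42 FPKM at ZT0 and 27.2, 35.1 and 48.9 at ZT12 in WT muscle, as lowest, median and highest. In RE-RE muscle Dbp was 2.93 and 5.60 in sham and 3.79 and 13.1 in 6-OHDA libraries at ZT0, and 23.7 and 24.0 in sham and 28.0 and 18.97 in 6-OHDA libraries at ZT12. The times did not overlap in either genotype. Dbp rose 10.5-fold in WT muscle (limma adjusted p = 2.03e-12), and the RE-RE difference was 4.38-fold (log2 2.13 ± 0.42 SE, adjusted p = 0.188). The genotype change of -1.26 ± 0.45 became -0.82, with an unadjusted p of 0.0592, without the library labelled RE-RE 6-OHDA ZT0 replicate 2, which holds the highest RE-RE value at ZT0.

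Hlf (ENSMUSG00000003949) showed the most negative change among the clock genes, -1.82 ± 0.75, on low values. In WT muscle Hlf was 0.291, 0.432 and 1.37 FPKM at ZT0 and 1.42, 1.81 and 2.92 at ZT12, and it rose. In RE-RE 6-OHDA muscle it was 0.255 and 1.81 at ZT0 and 0.654 and 0.305 at ZT12, so that the high ZT0 value came from the library labelled replicate 2. Without that library the change was -1.15 (unadjusted p = 0.118). Tef (ENSMUSG00000022389) rose 2.02-fold in WT muscle, had a 1.23-fold difference in RE-RE muscle and a genotype change of -0.71 ± 0.29. Nfil3 (ENSMUSG00000056749) fell in WT muscle and had a change of 0.33 ± 0.56, which was 0.05 without the library labelled RE-RE 6-OHDA ZT0 replicate 2 and 0.64 without RE-RE sham ZT0 replicate 2.

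Of the receptors and repressors that tie the loop together, Nr1d2 (ENSMUSG00000021775, REV-ERB beta) and Bhlhe41 (ENSMUSG00000030256), a repressor at E-boxes, rose in WT muscle, and Nr1d1, Rora and Bhlhe40 did not pass there. Nr1d1 (ENSMUSG00000020889, REV-ERB alpha) was 13.0, 24.1 and 29.5 FPKM at ZT0 and 16.6, 20.47 and 28.7 at ZT12 in WT muscle, with wide overlap. In RE-RE muscle Nr1d1 was 6.2 and 23.6 in sham and 16.9 and 29.5 in 6-OHDA libraries at ZT0, and 4.24 and 10.1 in sham and 9.94 and 13.0 in 6-OHDA libraries at ZT12. All 4 RE-RE libraries at ZT12 were thus below all 7 WT libraries at ZT12. The genotype change of Nr1d1 was -0.91 ± 0.47 (95% interval -1.88 to 0.06), and -0.54 (unadjusted p = 0.263) without RE-RE sham ZT0 replicate 2. For Nr1d2 it was -0.84 ± 0.37, and -0.46 (unadjusted p = 0.182) without the library labelled RE-RE 6-OHDA ZT0 replicate 2. Rora (ENSMUSG00000032238), an activator that shares the motif of the REV-ERB receptors, had a change of -0.78 ± 0.41, and -0.47 (unadjusted p = 0.259) without that library. Bhlhe40 (ENSMUSG00000030103) and Bhlhe41 had changes of -0.12 ± 0.37 and -0.25 ± 0.26, and that of Bhlhe41 was -0.11 without the library labelled RE-RE 6-OHDA ZT0 replicate 2 and -0.40 without RE-RE sham ZT0 replicate 1.

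Genes of fatty acid use, which take up, store and burn fat, had negative genotype changes, and the most negative median of the pathway lists outside the clock. Of the 20 genes in that list 18 passed the filter on low values and were tested. The genotype change was negative for 18 of 18, and for 14 of them at an unadjusted p under 0.05, where 2.5% of all genes tested were negative at that level, but none passed over all genes. The list was chosen with earlier results of these data known, so these shares are a description and no independent support. The median change of the list was -0.97, against -0.04 for all genes. The median day-night difference was 0.38 in WT muscle, where 9 of the 18 rose (3.77% of all genes) and none fell, and -0.65 in RE-RE muscle, where none passed. The sign of the difference was opposite in the genotypes for 17 of 18, and for 5540 of all 11171 genes. The exception was Angptl4, which encodes an inhibitor of lipoprotein lipase, with differences of -0.98 and -1.88.

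Slc25a34 (ENSMUSG00000040740, chromosome 4, 141618824 to 141623821) encodes a carrier of the inner mitochondrial membrane and had the smallest p of all negative changes. Its lowest, median and highest FPKM in WT muscle were 2.02, 2.59 and 4.28 at ZT0 and 3.79, 6.54 and 9.38 at ZT12. In RE-RE muscle Slc25a34 was 5.95 and 8.38 in sham and 8.46 and 16.2 in 6-OHDA libraries at ZT0, and 3.51 and 4.38 in sham and 2.17 and 2.35 in 6-OHDA libraries at ZT12. All RE-RE libraries were lower at ZT12 than at ZT0, and the RE-RE libraries at ZT0 lay above all WT libraries at ZT0. The gene rose 2.28-fold in WT muscle (limma adjusted p = 5.52e-05), while the RE-RE difference was -1.61 ± 0.45 on the log2 scale. That gave a genotype change of -2.80 ± 0.48 (95% interval -3.80 to -1.79, unadjusted p = 8.82e-06), -1.87 in sham and -3.70 in 6-OHDA muscle.

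Plin5 (ENSMUSG00000011305, chromosome 17, 56111601 to 56117596) encodes a coat protein of lipid droplets that meets mitochondria. In WT muscle Plin5 was 2.07, 4.24 and 7.03 FPKM at ZT0 and 7.92, 12.2 and 17.9 at ZT12, and it rose. In RE-RE muscle it was 13.2 and 13.0 in sham and 11.9 and 18.2 in 6-OHDA libraries at ZT0, and 7.62 and 10.5 in sham and 5.90 and 3.41 in 6-OHDA libraries at ZT12. The RE-RE times did not overlap and ran in the opposite order to WT. The genotype change was -2.69 ± 0.55 (95% interval -3.83 to -1.54, limma adjusted p = 0.224).

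Acot2 (ENSMUSG00000021226, chromosome 12, 83987861 to 83993873), a mitochondrial acyl-CoA thioesterase with close paralogs, so that reads may be shared, was 3.02, 3.55 and 5.29 FPKM at ZT0 and 5.08, 8.01 and 10.7 at ZT12 in WT muscle. In RE-RE muscle Acot2 was 5.45 and 12.0 in sham and 9.14 and 23.9 in 6-OHDA libraries at ZT0, and 3.45 and 6.31 in sham and 3.49 and 3.96 in 6-OHDA libraries at ZT12. The RE-RE times overlapped by 1 library on each side, and the largest value came from the library labelled RE-RE 6-OHDA ZT0 replicate 2. As estimated, the genotype change was -2.44 ± 0.50 (limma adjusted p = 0.224), and -2.04 without that library.

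Mlycd (ENSMUSG00000074064, chromosome 8, 119394878 to 119411102) encodes malonyl-CoA decarboxylase, which removes an inhibitor of fatty acid entry into mitochondria. Mlycd was 10.7, 17.4 and 22.9 FPKM at ZT0 and 20.03, 29.7 and 34.7 at ZT12 in WT muscle, and it rose. In RE-RE muscle it was 26.7 and 36.7 in sham and 32.3 and 54.3 in 6-OHDA libraries at ZT0, and 22.0 and 27.6 in sham and 22.0 and 20.52 in 6-OHDA libraries at ZT12, and the only overlap was between sham libraries. The genotype change was -1.40 ± 0.30 (limma adjusted p = 0.257). Acsl1 (ENSMUSG00000018796), which activates fatty acids to acyl-CoA, rose in WT muscle and had a change of -1.29 ± 0.31.

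The rest of the list covers uptake and oxidation, and the members named next were chosen after their values were seen. Fabp3 (ENSMUSG00000028773), a fatty acid carrier of the cytosol, rose 1.61-fold in WT muscle and had a genotype change of -1.65 ± 0.50. Lpl (ENSMUSG00000015568), which frees fatty acids from lipoproteins, rose in WT muscle and had a change of -1.10 ± 0.38, and Cd36 (ENSMUSG00000002944), a fatty acid receptor at the cell surface, had -0.83 ± 0.34. Without the 3 RE-RE libraries that stood apart Cd36 had -0.52. The carnitine carrier Slc25a20 (ENSMUSG00000032602) had -1.06 ± 0.33. Among enzymes of beta-oxidation, Acadvl (ENSMUSG00000018574) had -1.04 ± 0.32, Acadl (ENSMUSG00000026003) -0.91 ± 0.28, Hadha (ENSMUSG00000025745) -0.87 ± 0.28, Acadm (ENSMUSG00000062908) -0.85 ± 0.39 and Hadhb (ENSMUSG00000059447) -0.84 ± 0.36. The 4 members not at an unadjusted p under 0.05 were Angptl4, the regulator Ppard (-0.52 ± 0.31), and the carnitine transferases Cpt1a (-0.65 ± 0.51) and Cpt1b (-0.37 ± 0.59). Each of these 4 moved by more than 1.5 times with 1 RE-RE sham library. Without RE-RE sham ZT0 replicate 2, Ppard was -0.27, Angptl4 -0.37 and Cpt1b 0.06, the last with its sign turned, and without RE-RE sham ZT0 replicate 1 Cpt1b was -0.92. Without RE-RE sham ZT12 replicate 3, Cpt1a was -0.37 and Angptl4 -0.25.

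**Figure D3:**
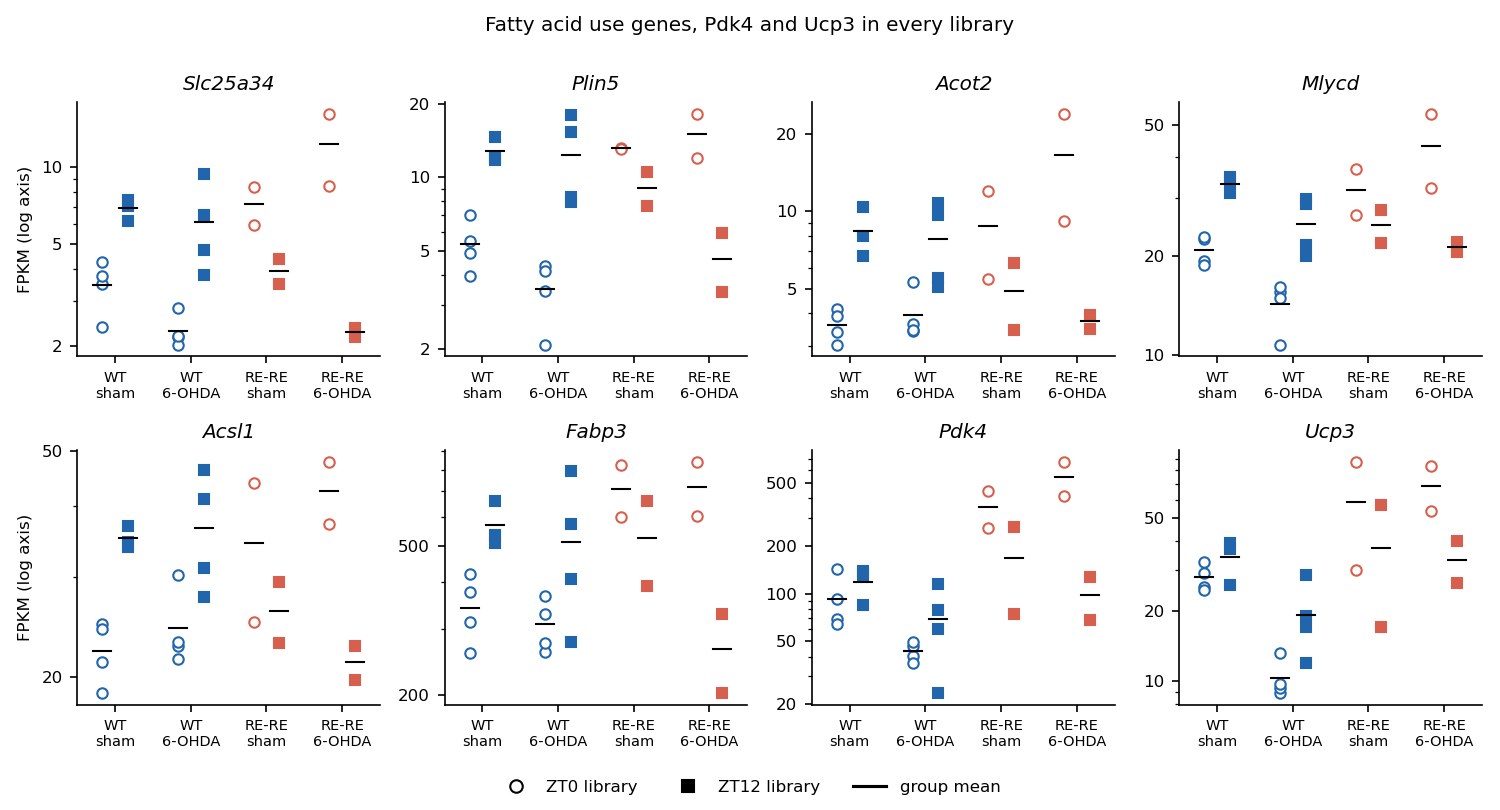
FPKM (log axis) of 6 genes of fatty acid use and of Pdk4 and Ucp3 in each of the 23 libraries, with WT in blue and RE-RE in red, open circles for ZT0, filled squares for ZT12 and a line at each group mean. For Plin5 the WT libraries lie at 2.07 to 7.03 at ZT0 and 7.92 to 17.9 at ZT12, and the RE-RE libraries at 11.9 to 18.2 and 3.41 to 10.5.

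A further 2 genes of fuel choice, in the list of clock output genes and also picked after their values were seen, had negative changes. Pdk4 (ENSMUSG00000019577), which turns muscle from glucose to fat by inhibiting pyruvate dehydrogenase, was 36.5, 56.8 and 142 FPKM at ZT0 and 23.6, 84.4 and 138 at ZT12 in WT muscle. In RE-RE muscle Pdk4 was 259.7 and 440.0 in sham and 413 and 676 in 6-OHDA libraries at ZT0, and 73.8 and 263 in sham and 68.2 and 128 in 6-OHDA libraries at ZT12. All 4 RE-RE values at ZT0 were above the highest WT value of either time. The genotype change of Pdk4 was -2.33 ± 0.73 (95% interval -3.86 to -0.81), and that of Ucp3 (ENSMUSG00000032942), a mitochondrial uncoupling protein of muscle, was -1.46 ± 0.52.

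The median change of the fatty acid list was -0.84 in sham muscle, with 5 of 18 at an unadjusted p under 0.05, where 0.528% of all genes were so in either direction. It was -1.24 in 6-OHDA muscle, with 12 of 18, where 2.9% of all genes were so. All 18 were negative with both treatments together, and Cpt1b was positive (0.29) in sham muscle alone. Without the library labelled RE-RE 6-OHDA ZT0 replicate 2 the median of both treatments together was -0.88, and without the 3 libraries that stood apart it was -0.98. In these fits each affected group held 1 library, so only the medians are given. Markers of other cells and of repair had positive median changes. In whole muscle fewer cells of a type and less RNA per cell cannot be told apart. The median genotype change was 1.02 over 11 macrophage genes (0.52 in sham and 1.96 in 6-OHDA muscle), 0.60 over 10 fibroblast and matrix genes (-0.52 and 1.79) and 1.22 over 9 of 10 regenerating muscle genes (0.12 and 1.96). None of these marker genes passed, and at an unadjusted p under 0.05 there was 1, in the regenerating list. The 6-OHDA medians include the library labelled RE-RE 6-OHDA ZT0 replicate 2, low in macrophage and regenerating markers, and were not taken without it. In RE-RE 6-OHDA muscle the summed macrophage markers were 326 FPKM in replicate 1 and 19.99 in replicate 2 at ZT0. At ZT12 they were 96.5 in replicate 3 and 364 in replicate 4. The summed macrophage markers ranged from 33.0 to 590.3 FPKM at ZT0 and 28.5 to 440 at ZT12 in WT muscle, and from 19.99 to 326 and 33.3 to 364 in RE-RE muscle, and no marker of the list was at 0 in every library. With the mean of the regenerating muscle markers as a covariate the median of the fatty acid list was -0.75. In that fit 12 of 18 were at an unadjusted p under 0.05, where 318 of all 11171 genes were so.

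Other lists of metabolism had smaller medians. Nuclear subunits of oxidative phosphorylation were negative for 18 of 18, where 55% of all genes were negative, with a median of -0.41 and 1 gene negative at an unadjusted p under 0.05 (2.5% of all genes), Sdha (ENSMUSG00000021577), a subunit of succinate dehydrogenase (-0.71 ± 0.29). These subunits had medians of -0.18 in sham and -0.66 in 6-OHDA muscle. For glucose uptake and glycogen control 11 of 13 were negative, 4 of them at that level, with a median of -0.60. Its gene with the smallest p was Tbc1d4 (ENSMUSG00000033083), which holds back the glucose transporter of muscle. Tbc1d4 rose in WT muscle, and its genotype change was -0.83 ± 0.27, made up of -0.22 in sham and -1.44 in 6-OHDA muscle (unadjusted p of that difference 0.0267, not past the limma test over all genes). The lipid synthesis list had a median of 0.46 over 13 genes, with 10 positive and 3 negative, where 55% of all genes were negative. At an unadjusted p under 0.05 it held 2 positive and 2 negative genes (1.3% and 2.5% of all genes), and none passed. Its smallest p was that of Gpam (ENSMUSG00000024978), which makes the first acyl bond of glycerolipids, at -1.15 ± 0.37.

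Among 16 clock output genes of muscle, 9 rose and 2 fell in WT muscle, against 3.77% and 4.01% of all genes, and none passed in RE-RE muscle. The median genotype change was -0.55, with 4 negative at an unadjusted p under 0.05, against 2.5% of all genes. Dgat2 (ENSMUSG00000030747), which makes triglyceride, had the smallest p of this list. In WT muscle Dgat2 was 5.79, 8.08 and 11.8 FPKM at ZT0 and 16.8, 22.5 and 32.1 at ZT12, with no overlap. In RE-RE muscle it was 7.83 and 14.0 in sham and 9.73 and 18.3 in 6-OHDA libraries at ZT0, and 9.52 and 14.9 in sham and 8.29 and 9.64 in 6-OHDA libraries at ZT12, so the times overlapped. The genotype change of Dgat2 was -1.65 ± 0.42 (95% interval -2.52 to -0.77, limma adjusted p = 0.934).

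Glucocorticoid-induced genes differed between the times in WT muscle without a shared change of that difference. Of 14, 10 rose in WT muscle, against 3.77% of all genes, with a median difference of 0.63, and the median difference in RE-RE muscle was 0.47, where none passed. The median genotype change was -0.22. Klf9 (ENSMUSG00000033863), a transcription factor induced by glucocorticoids, had the smallest p. It rose in WT muscle and its change was -0.79 ± 0.22.

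The remaining pathway lists had medians between -0.40 and 0.57. Immediate early genes had a median of 0.20 over 15 genes and none at an unadjusted p under 0.05, and the smallest p belonged to Ier3 (ENSMUSG00000003541, -0.62 ± 0.33, and -0.40 without the library labelled RE-RE 6-OHDA ZT0 replicate 2). Targets of cyclic AMP and CREB had a median of 0.15, and Pde4d (ENSMUSG00000021699), a phosphodiesterase, a change of -1.07 ± 0.45. Heat shock and cold-inducible genes had a median of 0.03, with Hspd1 (ENSMUSG00000025980) at -0.58 ± 0.29. Denervation genes had a median of 0.57 over 11 genes, with Chrnb1 (ENSMUSG00000041189), a subunit of the acetylcholine receptor, at 0.67 ± 0.32, and at 0.25 without the 3 RE-RE libraries that stood apart. The denervation median was 0.05 in sham and 0.63 in 6-OHDA muscle. This list shares Chrng, Myog and Ncam1 with the regenerating muscle markers. The sum of those markers was low (22.7 FPKM) in the library labelled RE-RE 6-OHDA ZT0 replicate 2, and its part in the 6-OHDA median was not tested. Atrophy ligases and FoxO factors had a median of -0.40, with Fbxo31 (ENSMUSG00000052934) at -0.80 ± 0.37. This median was 0.15 in sham and -1.12 in 6-OHDA muscle.

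Calcium handling and contraction genes had a median of -0.03 over 17 genes. Slc8a1 (ENSMUSG00000054640), the sodium-calcium exchanger, had the smallest p among them. In RE-RE muscle Slc8a1 was 2.37 and 2.62 FPKM in sham and 2.01 and 2.45 in 6-OHDA libraries at ZT0, and 0.774 and 0.8001 in sham and 0.433 and 0.716 in 6-OHDA libraries at ZT12. These times did not overlap, while in WT muscle they did (0.645, 1.57 and 1.82 at ZT0 and 0.869, 0.938 and 1.61 at ZT12). The genotype change of Slc8a1 was -1.43 ± 0.48, and its RE-RE difference, -1.81 ± 0.45, did not pass (limma adjusted p = 0.618).

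**Figure D4:**
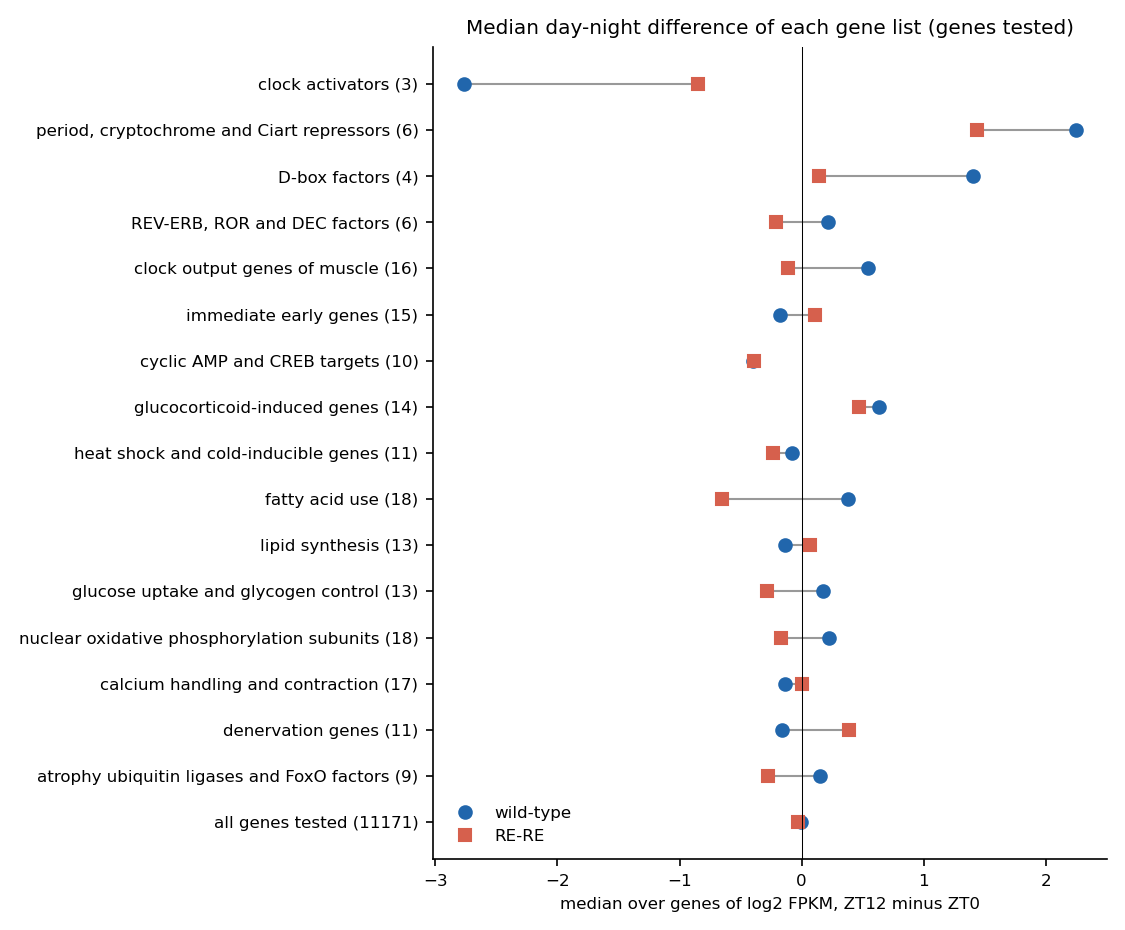
Median over the genes of each pathway list of the ZT12 minus ZT0 log2 FPKM difference, with a circle for WT and a square for RE-RE muscle, joined by a line, and the number of genes tested in brackets. The median of fatty acid use lies at 0.38 in WT and -0.65 in RE-RE muscle, and for all genes both lie near 0.

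Among genes with positive changes whose mean log2 FPKM reached 1 for some genotype and time, the 5 with the smallest p were Prkag3, Arntl, Spon2, Prr13 and Fst. None passed. Prkag3 (ENSMUSG00000006542), a subunit of AMP-activated kinase found in fast fibres, was 30.1, 37.6 and 50.9 FPKM at ZT0 and 22.96, 26.4 and 30.3 at ZT12 in WT muscle, where it fell. In RE-RE muscle Prkag3 was 20.8 and 37.6 in sham and 23.02 and 28.1 in 6-OHDA libraries at ZT0, and 32.0 and 41.6 in sham and 34.4 and 36.1 in 6-OHDA libraries at ZT12. Every RE-RE library at ZT12 was above every WT library at ZT12. That gave a genotype change of 0.91 ± 0.23 (95% interval 0.44 to 1.39), 0.96 in sham and 0.89 in 6-OHDA muscle.

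Spon2 (ENSMUSG00000037379), a secreted matrix protein, had the largest fall in WT muscle outside the clock lists, from 1.20, 2.96 and 8.48 FPKM at ZT0 to 0.139, 0.184 and 0.952 at ZT12. In RE-RE muscle it was 8.27 and 2.78 in sham and 5.78 and 1.49 in 6-OHDA libraries at ZT0, and 0.973 and 4.33 in sham and 3.26 and 5.31 in 6-OHDA libraries at ZT12, with wide overlap. All 4 RE-RE values at ZT12 were above the highest WT value at that time. The genotype change was 3.18 ± 0.90 (95% interval 1.32 to 5.04), 2.11 in sham and 4.23 in 6-OHDA muscle. Fst (ENSMUSG00000021765), which encodes follistatin, an inhibitor of myostatin, and Prr13 (ENSMUSG00000023048) fell in WT muscle and had changes of 1.49 ± 0.48 and 0.80 ± 0.23.

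Other genes with large differences in WT muscle varied in their RE-RE values. Slc10a6 (ENSMUSG00000029321), a carrier of steroid sulfates, rose 5.27-fold in WT muscle and had a 4.94-fold difference in RE-RE muscle, with a genotype change of -0.09 and a 95% interval from -1.20 to 1.01. The change of Slc10a6 was -0.49 without RE-RE sham ZT0 replicate 1 and 0.34 without replicate 2. Arrdc2 (ENSMUSG00000002910), an arrestin-domain gene, rose 10.7-fold in WT muscle and had a 6.87-fold difference in RE-RE muscle (change -0.64 ± 0.85, and -1.10 without RE-RE sham ZT0 replicate 1 or -0.03 without replicate 2). Pim1 (ENSMUSG00000024014), a kinase, fell 3.31-fold in WT muscle and had a 2.56-fold lower level at ZT12 in RE-RE muscle (change 0.37 ± 0.53, and -0.15 without RE-RE sham ZT0 replicate 1 or 0.95 without replicate 2). None of these 3 RE-RE differences passed. Ppp1r3c (ENSMUSG00000067279), which targets a phosphatase to glycogen, fell in WT muscle and had a change of 0.69 ± 0.67.

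Col5a3 (ENSMUSG00000004098), a collagen chain, and Creb3l1 (ENSMUSG00000027230), a transcription factor of matrix-secreting cells, fell in WT muscle (log2 -1.43 and -1.37), had RE-RE differences of 0.30 and 0.29 and changes of 1.73 ± 0.62 and 1.66 ± 0.64. The summed fibroblast and matrix markers ranged from 209 to 1660.3 FPKM at ZT0 and 134 to 1282 at ZT12 in WT muscle, and from 143 to 1118 and 187 to 1363 in RE-RE muscle, and their part in these values was not tested. Adh1 (ENSMUSG00000074207), an alcohol dehydrogenase, and Inmt (ENSMUSG00000003477), a methyltransferase, rose in WT muscle and had changes of -1.22 ± 0.74 and -2.37 ± 1.48, and that of Adh1 was -0.76 without RE-RE 6-OHDA ZT12 replicate 4. Inmt was low in RE-RE muscle, with 0.653 and 0.320 FPKM in sham and 0.279 and 0.145 in 6-OHDA libraries at ZT0 and 0.270 and 1.29 in sham and 0.447 and 0.0410 in 6-OHDA libraries at ZT12, against 1.94, 5.29 and 7.43 in WT muscle at ZT12. Ibsp (ENSMUSG00000029306), a bone matrix protein, also rose in WT muscle, but its libraries ranged from 0 to 12.9 FPKM in WT and from 0 to 124 in RE-RE muscle, and its change had a 95% interval from -9.48 to 4.46 and ran from -3.75 to -0.91 when each library was left out. It was 0.36 without the 3 RE-RE libraries that stood apart.

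A gene picked for its difference in WT libraries will tend to show a smaller difference elsewhere. Genes were therefore picked in WT sham libraries alone, where 214 passed (1.92%), and described in the groups that took no part in the choice. The 102 genes higher at ZT12 had a median difference of 0.80 in WT 6-OHDA muscle, 0.33 in RE-RE sham and 0.08 in RE-RE 6-OHDA muscle, with 99, 84 and 57 of them in the same direction. For the 112 genes lower at ZT12 the medians were -0.45, -0.47 and -0.27, with 101, 102 and 77 in the same direction. The 9 higher clock genes among them had medians of 2.14 in WT 6-OHDA, 1.20 in RE-RE sham and 0.95 in RE-RE 6-OHDA muscle. Picked instead in WT 6-OHDA libraries alone (169 genes, 1.51%), 117 higher genes had medians of 0.79 in WT sham, 0.56 in RE-RE sham and 0.39 in RE-RE 6-OHDA muscle. For the 52 lower genes they were -0.83, -0.58 and -0.02. Genes picked as higher thus had a larger median in the WT group not used for the choice than in either RE-RE group, in both choices, and genes picked as lower did so when picked in 6-OHDA muscle. These medians carry no test. Those of RE-RE 6-OHDA muscle rest on 2 libraries at each time, and at ZT0 1 of them is the library labelled replicate 2, which stood apart. They were not taken without it.

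**Figure D5:**
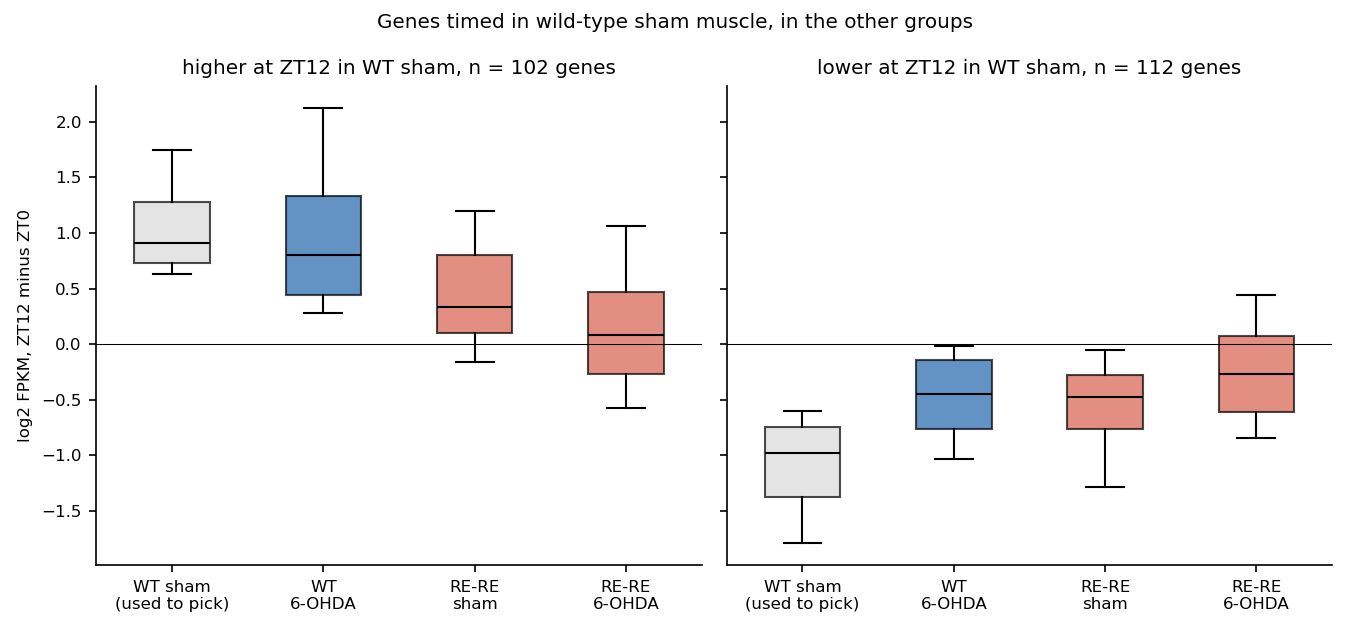
ZT12 minus ZT0 log2 FPKM difference of the 102 higher and 112 lower genes picked for time in WT sham libraries alone (grey, used to pick), shown in WT 6-OHDA (blue) and RE-RE (red) muscle. Boxes are quartiles with a line at the median, and whiskers run from the 10th to the 90th percentile. The median of the higher genes is 0.80 in WT 6-OHDA, 0.33 in RE-RE sham and 0.08 in RE-RE 6-OHDA muscle.

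Within sham muscle no gene passed for the genotype change (0%), with 59 at an unadjusted p under 0.05, and within 6-OHDA muscle none passed (0%), with 324. The difference between the treatments in the genotype change also passed for no gene (0%), with 27 at an unadjusted p under 0.05. As shares of all genes tested the 3 unadjusted counts were 0.528%, 2.9% and 0.242%, each below the share of 0.05 expected with no change. These unadjusted counts rest on single libraries. That of sham muscle ran from 30 without RE-RE 6-OHDA ZT12 replicate 4 to 209 without RE-RE sham ZT12 replicate 3. That of 6-OHDA muscle was 24 without the library labelled RE-RE 6-OHDA ZT0 replicate 2, 42 without RE-RE 6-OHDA ZT12 replicate 4 and 1491 without RE-RE 6-OHDA ZT0 replicate 1, and for the difference between treatments the counts without the same libraries were 7, 6 and 464. By limma-voom on recovered reads the 3 counts of genes that passed were 0 as well, with 54, 322 and 31 at that level. Among the clock genes the smallest p of that difference was that of Bhlhe40, with a genotype change of 0.68 in sham and -0.86 in 6-OHDA muscle (unadjusted p = 0.0277). With both treatments together the change of Bhlhe40 was near 0, and it ran from -0.43 without RE-RE sham ZT0 replicate 1 to 0.18 without the library labelled RE-RE 6-OHDA ZT0 replicate 2.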

How the data were processed

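Total RNA of whole mouse muscle was sequenced in 23 libraries, and the library selection is not given in the sources used here. The deposited values are log2 FPKM per gene, with 0.01 added before the logarithm as read from the lowest value of -6.64, so that a gene listed at 0 FPKM sits at that floor. Build GRCm38 is named in the submitters' processing notes. The same notes of the authors list, with no role or order, HISAT2 2.1.0, edgeR 3.30.0, featureCounts 1.6.2, Trim Galore 0.5.0 and FastQC 0.11.8. Gene names were matched to the annotation for 14435 of 14500 genes, of which 12171 were protein-coding, and 0 columns had no sample. Low values were whole multiples of 1 read for 86.6% to 94.9% of those up to 20 reads (tolerance 0.1 reads), which gave recovered totals of 21.1 M to 36.1 M reads per library. These reads were used only in alternatives, with the library sizes that the deposited values imply, and depth limits genes of low level most. The recovered totals were 0.84 to 1.52 times the implied sizes, and 1.25 to 1.52 times in RE-RE sham libraries.

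The deposited log2 values were fitted with limma 3.58.1 in R 4.3.3, with a mean for each genotype and treatment and a time difference for each genotype, and the errors of each genotype weighted by its own spread. P-values were adjusted over all 11171 genes by the Benjamini-Hochberg method and called at 0.05. Within-treatment changes and their difference came from a fit with 1 mean for each of the 8 groups. The script was tested on simulated data. Genes named in the text are the 19 clock genes, of which 1 is not reported here by name, the 5 genes with the smallest p in each direction since none passed, the member of each pathway list with the smallest p, and the 5 largest rises and falls in WT muscle outside the clock lists. Other members of the fatty acid list, Pdk4 and Ucp3 were added after their values were seen. Lists were of clock genes, clock output, immediate early, cyclic AMP, glucocorticoid, heat shock, fatty acid, lipid synthesis, glucose, oxidative phosphorylation, calcium, denervation and atrophy genes, and of markers of 9 cell types or states. The members and lists were chosen with earlier results of these data known. Of the marker lists not described with the results, the median genotype change was -0.12 for fast muscle fibre, 0.15 for endothelial cell, 0.61 for Schwann cell, 0.56 for adipocyte, 0.60 for erythroid cell and 0.21 for smooth muscle genes. Alternatives changed the error model, filter, offset, scaling, test, covariates and samples.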

Additional observations from a re-analysis of the deposited data

Results flagged for a closer look

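In 8 of 189 sets made of a named gene and a group of 4 libraries, 1 library lay apart from the other 3 by more than Dixon's limit, where chance gives about 1 in 20. In WT 6-OHDA muscle at ZT0, Hlf was 0.397 FPKM in replicate 4 against 0.291 to 0.300, and replicate 2 had 5.29 for Acot2 against 3.41 to 3.65 and 11.8 for Dgat2 against 8.02 to 8.38. In WT sham muscle at ZT0, replicate 2 had 1.94 for Fst against 1.61 to 1.65, 51.3 for Hspd1 against 73.2 to 76.1 and 4.37 for Adh1 against 6.51 to 6.83. In WT 6-OHDA muscle at ZT12, replicate 6 had 18.2 for Col5a3 against 6.69 to 7.64 and 54.1 for Lpl against 92.8 to 97.0. RE-RE groups hold 2 libraries each and could not be examined in this way.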

How the results depend on the processing

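The count of genes that passed for the genotype change of the day-night difference depended on the error model. It was 0 with a spread for each genotype, 12 with 1 pooled spread (10 negative and 2 positive) and 229 with 1 weight per library, where the weights did not settle. It was 2 with no filter on low values and 2 without RE-RE sham libraries 1 and 3 and RE-RE 6-OHDA library 2, 1 by limma-voom on recovered reads, and 0 to 1 when each library was left out. The 1 was Slc25a34 without WT 6-OHDA ZT12 replicate 5 or 7, and Npas2 without RE-RE sham ZT12 replicate 3. For 6-OHDA muscle alone it was 5 with the pooled spread and 0 to 1 when each library was left out. Sham muscle and the difference between treatments gave 0 under every alternative run. The count for time in WT muscle was 317 with the pooled spread. In RE-RE muscle it was 83 with the pooled spread, 750 with 1 weight per library, 0 with each gene's own spread, 3 after quantile normalization, 0 with own totals of recovered reads, 2 with regenerating muscle markers as a covariate, 7 without the 3 libraries, and 0 to 3 when each library was left out. The causes were not tested. Where an RE-RE library was left out its group held 1 library, so the counts of those fits allow no conclusion. Scaling to own totals moved the median genotype change of all genes to 0.15. No call reversed, and the sign of a named gene flipped in 24 of 2508 pairs of gene and alternative. Libraries that share a number were not paired, with correlations from -0.16 to 0.36 and mostly different ages, and a random replicate block gave 0 genes for the genotype change, 704 for time in WT and 1 in RE-RE muscle. A fixed block was not run because the numbers run on through both times.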
